A study of Mus musculus with 36 samples.

Results

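The data are the ribosome-bound RNA of striatal microglia in mice whose forebrain neurons carry a designer receptor of the exciting kind, sampled after that receptor's drug or after saline. Its members are the 6 libraries whose column headings name Neuron-Chrm3 microglia, 3 from animals given clozapine-N-oxide (CNO) and 3 from animals given saline, out of 36 samples in the series. CNO and saline animals have the same genotype in the labels. Camk2a-tTA, which acts in forebrain neurons, drives TetO-Chrm3, the designer form of a muscarinic receptor that couples to Gq. Cx3cr1CreErt2/+(Litt), active in cells with the fractalkine receptor, recombined the tag allele after tamoxifen, given when the mice were 4 to 6 weeks old, and so switched on Eef1a1LSL.eGFPL10a/+, a green tag on ribosomal protein L10a. CNO or saline was injected 2 h before tissue was taken. Libraries set beside them are the unbound RNA of the same line (3 CNO, 3 saline) and the Chrm4 line, which carries TetO-Chrm4 in place of TetO-Chrm3 and is otherwise labelled alike (2 CNO and 2 saline pull-downs, 2 and 2 unbound). No labelled group received the drug while lacking a designer receptor, so what CNO does by itself and what it does through Chrm3 cannot be told apart. Perivascular macrophages also express Cx3cr1, and 10 of their markers summed to 54.0, 47.2 and 49.8 RPKM in the CNO pull-downs, against 67.0, 61.1 and 26.2 RPKM in the saline pull-downs. The labels do not say whether animals were pooled, so p-values measure the spread between these libraries.

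In translating ribosome affinity purification (TRAP), antibodies to the tag collect the ribosomes of 1 cell type together with the mRNA on them, and the rest of the tissue RNA stays unbound. Microglia are the resident macrophages of the brain, which sense neuronal firing through purines and chemokines and can transcribe immediate early genes of their own. Excited neurons transcribe the same early genes within minutes, and their RNA is abundant in striatal tissue. The level of such a gene in a pull-down can come from either cell, and in bulk RNA fewer cells of a type and less RNA per cell cannot be told apart.

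Reads in genes numbered 14.1, 107 and 19.3 M (megareads) in the CNO libraries, against 96.2, 23.2 and 22.6 M in the saline libraries. Levels are the deposited RPKM, in which reads are scaled to gene length and to library size. The 30 homeostatic microglia markers were all measured, and their summed level was 13649, 11542 and 12005 RPKM after CNO, against 14073, 13918 and 9927 RPKM after saline. The pan-neuronal sum over 12 markers was 1766, 1555 and 1652 RPKM after CNO, against 1034, 1436 and 1821 RPKM after saline. Saline library 3 stood apart, with the lowest microglial sum and the highest sums of 18 spiny neuron markers (901 RPKM) and of 14 oligodendrocyte markers (467 RPKM). Spiny neuron sums were 397, 483 and 603 RPKM after CNO, against 696, 417 and 901 RPKM after saline. The 12 markers of monocytes, neutrophils and blood summed to 2.48 to 4.40 RPKM after CNO, against 3.83 to 6.73 RPKM after saline, with S100a8, Retnlg and Camp at 0 in all 6. The 14 endothelial and pericyte markers summed to 5.89 to 15.7 RPKM after CNO, against 7.73 to 22.3 RPKM after saline.

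The receptor gene itself separated the groups. Chrm3 stood at 2.57, 1.52 and 3.87 RPKM in the CNO pull-downs, against 0.566, 0.778 and 0.637 RPKM in the saline pull-downs. In unbound RNA it stood at 6.602, 6.07 and 7.20 RPKM after CNO, against 2.42, 3.54 and 2.12 RPKM after saline. In the Chrm4 line, which has no TetO-Chrm3, unbound Chrm3 was 3.11 and 4.02 RPKM after CNO, against 3.31 and 4.57 RPKM after saline. The saline libraries of the Chrm3 line therefore lay at or below the level of a line without that transgene, and the CNO libraries lay above it. Whether the Chrm3 line of the table counts reads of the transgene is not given in the sources used here, and whether the CNO and saline animals differed in more than the injection was not tested. Every CNO change below carries that limit.

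Which genes changed in the microglial pull-down after CNO? Of 11465 genes tested, 5 passed and all 5 rose (0.0436% called): Nr4a1, Fosb, Egr1, Arc and Egr2. All are immediate early genes, induced without new protein synthesis. The test was limma on log2(RPKM + 1) over the 10 pull-down libraries of both receptor lines, with p adjusted by Benjamini and Hochberg and the threshold at 0.05. An unadjusted p under 0.05 was reached by 630 genes (5.49%), 265 of them higher (2.31%) and 365 lower (3.18%). With 3 libraries a side, an exact permutation test of 1 gene cannot give a p below 0.1.

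Nr4a1 encodes a nuclear receptor with no known ligand of its own and lies on chromosome 15 at 101254269 to 101274795 (GRCm38, as for all positions here). It stood at 19.9, 71.6 and 76.1 RPKM after CNO, against 3.801, 5.28 and 3.53 RPKM after saline. Its lowest CNO library was well above its highest saline library, and the log2 change was 3.25 ± 0.41 (SE; limma adjusted p = 0.00945). Fosb, an AP-1 subunit (chromosome 7, 19302696 to 19310051), stood at 11.2, 61.7 and 38.2 RPKM after CNO, against 1.12, 1.04 and 3.05 RPKM after saline. CNO library 1 was again the lowest of its group, and the groups did not overlap (log2 3.58 ± 0.47). Egr1, a zinc-finger transcription factor, stood at 78.1, 177 and 240.1 RPKM after CNO, against 27.4, 29.9 and 32.7 RPKM after saline. Its saline libraries were within a narrow range and all CNO libraries lay above them (log2 2.28 ± 0.30).

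Arc, a capsid-like protein that regulates synaptic glutamate receptors (chromosome 15, 74669083 to 74672570), stood at 27.0, 92.7 and 98.4 RPKM after CNO, against 3.37, 11.5 and 4.10 RPKM after saline. Egr2, the zinc-finger factor also known from myelination (chromosome 10, 67535475 to 67542188), stood at 12.6, 61.3 and 51.1 RPKM after CNO, against 4.46, 1.21 and 3.02 RPKM after saline. For both genes CNO library 1 lay above every saline library but far below the other two CNO libraries. The log2 changes were 3.29 ± 0.47 for Arc (limma adjusted p = 0.0169) and 3.28 ± 0.50 for Egr2 (limma adjusted p = 0.0241). The number of calls moved with single libraries. Without saline library 1, 2 or 3 the number of genes called was 0, 2 and 1, and without CNO library 2 or 3 it was 0. Without CNO library 1 it was 35 of 11478 tested, of which 33 were higher. These 35 held 17 of 48 activity genes and 4 genes enriched in the pull-down, both defined below. The enriched class held 927 of the 11465 genes tested with all libraries. The log2 changes themselves stayed high over all alternatives, between 2.55 and 3.86 for Nr4a1, 1.94 and 2.74 for Egr1 and 2.67 and 3.96 for Arc.

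**Figure D1:**
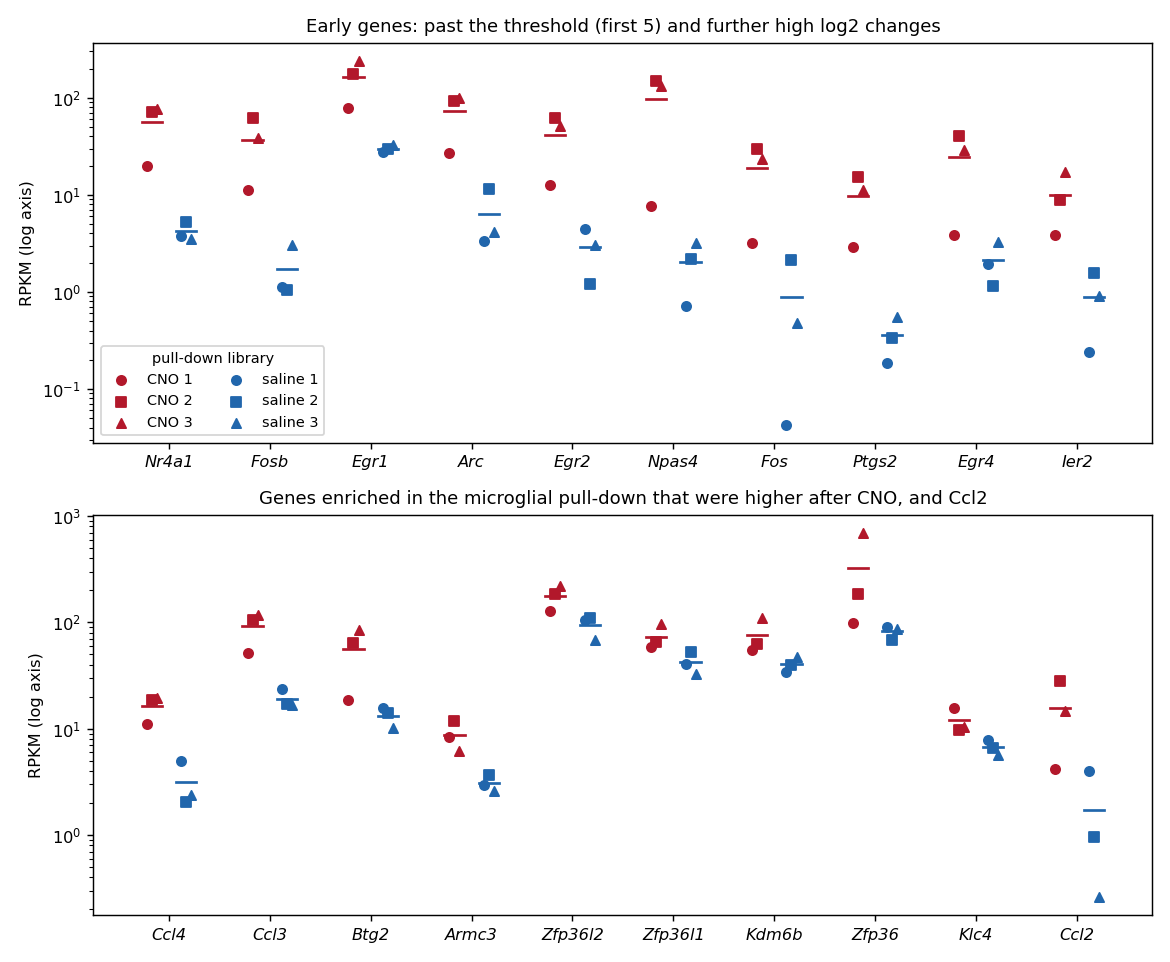
Level in RPKM (log axis) of 20 named genes in each Chrm3 pull-down library, CNO (red, left) and saline (blue, right) for each gene, with bars at the group means. The upper panel holds the 5 genes past the threshold and further genes with high log2 changes, where CNO library 1 is the lowest CNO library in every case; the lower panel holds pull-down enriched genes and Ccl2, where Zfp36 reaches 692 RPKM in CNO library 3.

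How strongly did each library respond? The measure is the median, over 48 tested activity genes of 51 listed, of a library's log2(RPKM + 1) minus the saline mean. It was 0.59, 1.38 and 1.13 in CNO libraries 1, 2 and 3. In the saline libraries, each set against the other two, it was -0.09, -0.01 and 0.02. Library 1 of the CNO group thus had the weakest response, and it is also the shallowest of the 6 at 14.1 M reads. The part of depth in this was not tested. In that library Nr4a1 had 707 recovered reads, whereas Ptgs2 had 171, Fos 109 and Ier2 85. Of the 48 genes, 41, 46 and 47 were above the saline mean in the 3 CNO libraries, and 17, 28 and 27 were more than 1 log2 unit above it. Unbound RNA also held 1 CNO library below the others, with medians of 0.98, 1.89 and 1.24 in its CNO libraries, against -0.16, 0.37 and -0.20 in its saline libraries. The columns do not tie a pull-down to its own unbound RNA, so whether the weakest pull-down and the weakest unbound library came from the same animal is not known.

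**Figure D2:**
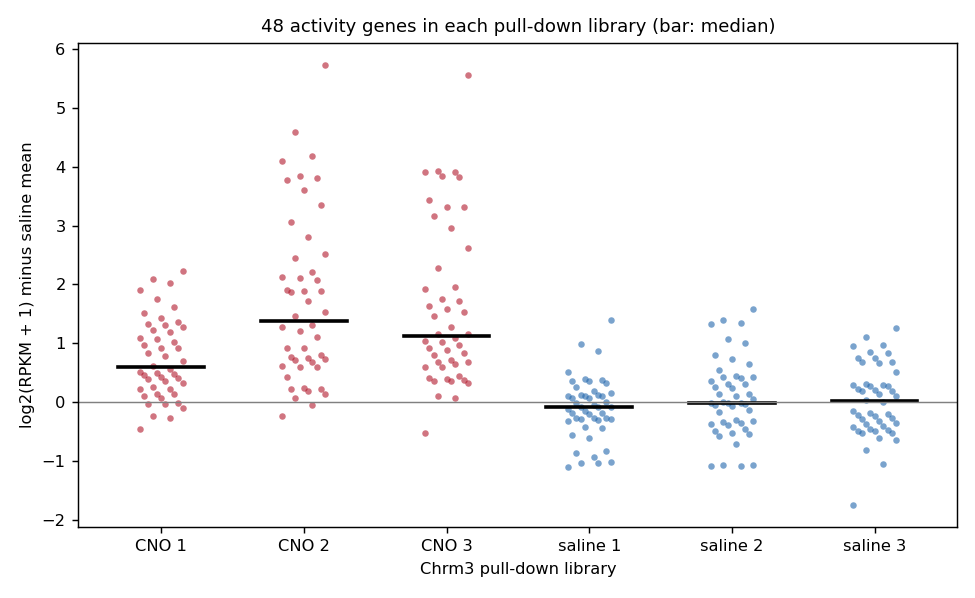
Change of the 48 activity genes (1 point each) in every Chrm3 pull-down library, as log2(RPKM + 1) minus the mean of the saline libraries, or of the other two for a saline library; black bars are medians. The medians of CNO libraries 1 to 3 are 0.59, 1.38 and 1.13 and the saline medians lie between -0.09 and 0.02.

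The activity genes are those that neuronal firing is known to induce. Of the 48 activity genes, 46 were higher after CNO (45.5% of all genes tested were) and the 5 named above passed, with a median log2 change of 1.03, against -0.03 over all genes tested. In 25 of the 48 every CNO library exceeded every saline library, which held for 452 of all genes (3.94%). The list was chosen with results of these data known, so its direction is no independent evidence. Of the 25 transcription factors tested 4 passed, and of the 23 effectors 1 did.

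Among activity genes that did not pass, Npas4, a neuron-specific activity factor, stood at 7.69, 150.3 and 133 RPKM after CNO, against 0.71, 2.18 and 3.20 RPKM after saline (log2 4.31 ± 0.82, limma adjusted p = 0.107). Fos stood at 3.23, 29.6 and 23.4 RPKM after CNO, against 0.043, 2.13 and 0.473 RPKM after saline (log2 3.12 ± 0.60). In both genes the spread among CNO libraries was large, with library 1 at 7.69 RPKM of Npas4 against 133 RPKM or more in the other two. The prostaglandin synthase gene Ptgs2 stood at 2.87, 15.4 and 11.1 RPKM after CNO, against 0.186, 0.335 and 0.547 RPKM after saline. Inhba, an activin subunit, was even across CNO libraries, at 33.2, 33.8 and 30.6 RPKM, against 14.3, 10.4 and 14.98 RPKM after saline (log2 1.25 ± 0.28). CNO library 1 was not the lowest of its group for this gene.

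Promoters of genes from both sides of the question, early genes whose RNA neurons also make and genes enriched in the pull-down, are shown to set their sequences beside the changes. They are the 250 bases before the start that RefSeq gives on GRCm38.p6, which for Nr4a1, Fosb and Zfp36 lies inside the GENCODE gene bounds printed here. They run 5′ to 3′ on the gene's strand, at chr15:101266596-101266845 (+, Nr4a1), chr7:19310046-19310295 (-, Fosb), chr1:134079156-134079405 (-, Btg2), chr7:28379229-28379478 (-, Zfp36) and chr11:83649379-83649628 (-, Ccl3). Capitals mark every match, on either strand, to the CRE core TGACG (full site TGACGTCA), the AP-1 site TGANTCA, the CArG box of SRF and the NF-kB consensus.
Nr4a1: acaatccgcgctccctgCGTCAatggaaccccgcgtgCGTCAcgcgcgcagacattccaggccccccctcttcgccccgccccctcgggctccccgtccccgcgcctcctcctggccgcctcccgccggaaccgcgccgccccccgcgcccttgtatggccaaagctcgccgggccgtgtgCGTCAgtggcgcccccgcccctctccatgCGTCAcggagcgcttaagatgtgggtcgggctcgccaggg
Fosb: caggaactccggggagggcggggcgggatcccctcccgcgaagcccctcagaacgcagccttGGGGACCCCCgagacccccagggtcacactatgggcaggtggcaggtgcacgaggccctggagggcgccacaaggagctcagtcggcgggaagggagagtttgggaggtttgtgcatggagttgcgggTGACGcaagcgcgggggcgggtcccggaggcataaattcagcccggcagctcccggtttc
Btg2: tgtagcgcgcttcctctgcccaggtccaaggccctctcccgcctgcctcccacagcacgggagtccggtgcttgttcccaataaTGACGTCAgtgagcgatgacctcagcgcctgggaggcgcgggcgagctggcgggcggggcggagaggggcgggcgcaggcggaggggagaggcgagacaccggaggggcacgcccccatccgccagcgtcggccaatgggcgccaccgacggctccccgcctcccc
Zfp36: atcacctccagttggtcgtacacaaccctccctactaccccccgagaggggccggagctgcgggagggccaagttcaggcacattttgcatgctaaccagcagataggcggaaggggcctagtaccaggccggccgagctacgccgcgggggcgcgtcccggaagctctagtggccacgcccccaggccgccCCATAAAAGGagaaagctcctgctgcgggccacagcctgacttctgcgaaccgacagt
Ccl3: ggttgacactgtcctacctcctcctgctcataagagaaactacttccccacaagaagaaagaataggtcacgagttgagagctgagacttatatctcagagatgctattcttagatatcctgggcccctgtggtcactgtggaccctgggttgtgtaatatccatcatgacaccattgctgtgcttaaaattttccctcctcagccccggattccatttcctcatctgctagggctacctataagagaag
The Nr4a1 window held 4 CRE cores, at -233, -213, -69 and -40 from the start. Fosb held 1 at -60 and an NF-kB match at -188, Btg2 the full site at -166, Zfp36 a CArG box at -58, and Ccl3 none of these. Among the 32851 RefSeq promoter windows, 17.8% held the CRE core, 1.55% the full site, 6.75% the AP-1 site, 1.47% a CArG box and 7.25% an NF-kB match. These shares are over single windows, whereas a gene below counts if any of its windows held the match, so the 2 are not alike. Of the 11 genes called or among the 10 highest log2 changes without overlap, 7 were among the RefSeq promoters. Of these 7, 6 held a CRE core and 5 an NF-kB match. Of the 10 enriched genes with the smallest p among those higher, 6 were among the RefSeq promoters. Of these 6, 2 held a CRE core and 0 an NF-kB match. These are matches of letters, not sites shown to be bound.

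Were the genes that rose microglial? Each gene was classed by its enrichment in the pull-down over unbound RNA in the saline libraries of the Chrm4 line. These are in neither arm of the CNO contrast, although the pull-downs among them enter its filter and its estimate of the spread. The ratio was taken on mean RPKM + 1, with enriched at 4 or more and depleted at 0.5 or less. It describes saline levels, so a gene near 0 in both fractions is intermediate whichever cell makes it after CNO. Ccl2, at means of 0.808 RPKM in that pull-down and 0.0532 RPKM in that unbound RNA, was intermediate (ratio 1.72). The class therefore cannot say which cell made the RNA gained after CNO. Of the 5 genes that rose, 4 were depleted from the microglial pull-down and Egr2 was intermediate. Of the 927 enriched genes 0 passed by limma (0% called), against 0.0112% of 8918 intermediate and 0.247% of 1620 depleted genes. An unadjusted p under 0.05 was reached by 57 enriched genes, 32 higher (3.45%) and 25 lower (2.7%), and limma-voom on recovered reads called 1 of them, Ccl3. Every CNO library exceeded every saline library in 32 enriched genes (3.45%), a share close to the 3.94% over all genes. The reverse held for 23 enriched genes (2.48%), against 599 of all genes (5.22%). Among depleted genes these shares were 2.72% and 6.23%. The median log2 change was 0.05 in the enriched class, -0.03 in the intermediate and -0.12 in the depleted class.

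**Figure D3:**
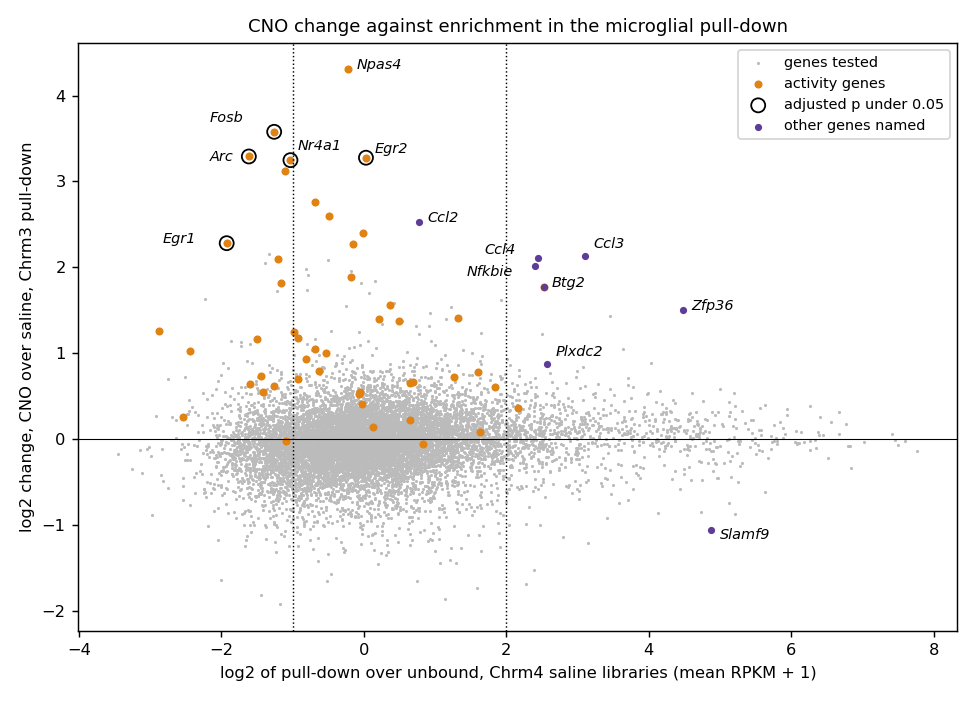
Log2 change after CNO in the Chrm3 pull-down (vertical) against log2 of the pull-down over unbound ratio in Chrm4 saline libraries (horizontal) for 11465 genes, with dotted lines at the limits of the depleted and enriched classes. The 5 circled genes past the threshold lie outside the enriched class, and Ccl3, Ccl4, Btg2, Nfkbie and Zfp36 are high within it.

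A related measure set the level of each gene beside the level that unbound RNA could bring with it. It too rests on pull-down against unbound levels, so it is not independent of the classes. Over 56 markers picked for neurons, astrocytes and oligodendrocytes, the pull-down held a median of 0.353 of the unbound level in Chrm4 saline libraries. Single markers lay between 0.129 and 3.39. The highest ratio was 2.56 among pan-neuronal, 2.39 among astrocyte and 3.39 among oligodendrocyte markers, so some were higher in the pull-down than in unbound RNA. The tagged cells may hold RNA of such markers themselves, and the ratio need not measure carry-over alone. The carried level of a gene is this median times its mean in CNO unbound RNA, and the wide range of the markers is its error. Of 924 enriched genes with a carried share of the CNO pull-down level, 900 had one under 10%, with a median of 1.65%. A low share is thus common to the enriched class, whether or not a gene changed. For Nr4a1 the unbound mean was 127 RPKM after CNO, against 13.3 RPKM after saline, and the carried level was 44.8 RPKM or 80.2% of the CNO pull-down level. For Fosb it was 116%, for Egr1 114%, for Arc 82.8% and for Egr2 58.8%. Fos reached 197%. At the median marker ratio, the carried level of each of the 5 genes that rose thus exceeded 50% of the CNO pull-down level. With saline means in both fractions the share was 111% for Nr4a1, 165% for Fosb, 149% for Egr1, 113% for Arc and 38.2% for Egr2. For all but Egr2 the estimate thus overshot the whole saline pull-down level. A marker ratio near the lowest would give smaller shares.

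Of the 25 activity genes whose groups did not overlap, 21 had a carried share of 50% or more and none had one under 10%, with a median of 80.8%. Of all 48 activity genes tested, 31 had a share of 50% or more and 2 one under 10%, with a median of 76.2%. High shares were therefore not particular to the 25, and the share over all genes tested was not taken. In unbound RNA, 78 of 11123 genes passed (0.701%), 64 higher (0.575%) and 14 lower (0.126%), and there Nr4a1 rose by log2 3.06 and Fosb by 3.43. The difference between fractions, pull-down minus unbound, was 0.19 for Nr4a1 (95% interval -1.22 to 1.59), 0.15 for Fosb (-1.43 to 1.73), 0.22 for Egr1 (-0.73 to 1.17), 0.33 for Arc (-1.25 to 1.90) and -0.56 for Egr2 (-2.19 to 1.07). None of these differences passed, and for 4 of the 5 the interval reached beyond 1 log2 unit on both sides. The level of these genes in microglia themselves cannot be told apart from RNA carried over.

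**Figure D4:**
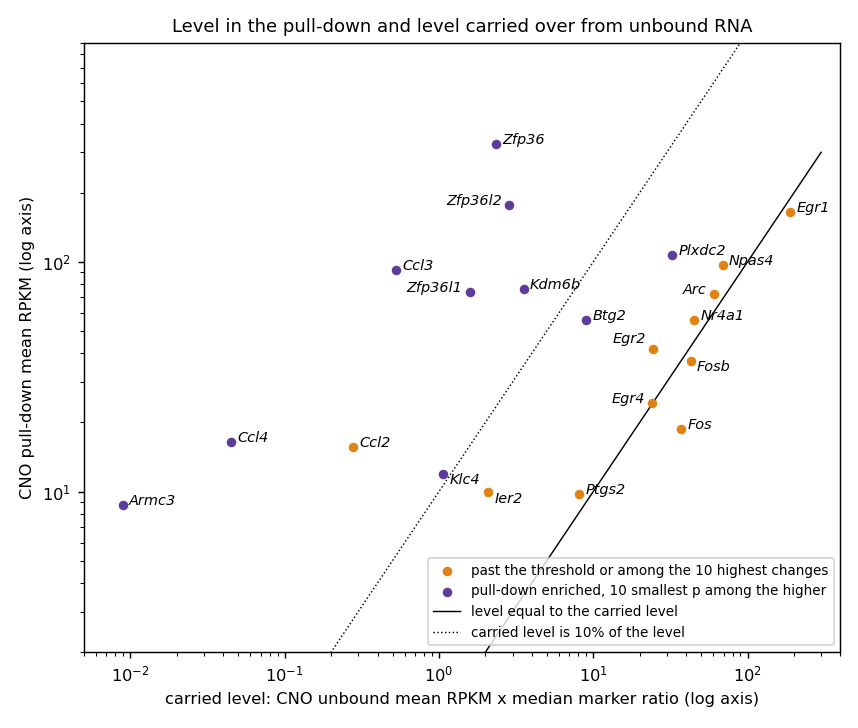
Mean level in the Chrm3 CNO pull-down (vertical, RPKM, log axis) against the level that unbound RNA could carry over (horizontal, RPKM, log axis) for the genes past the threshold or among the 10 highest log2 changes (orange) and the 10 enriched genes with the smallest p among those higher (violet). The early genes lie near the line of equal levels, with Fos beyond it at 197% and Ier2 short of it at 21%, whereas Ccl2 at 1.78%, Ccl4 at 0.275% and Armc3 at 0.102% lie far above it. Of 924 enriched genes with a share, 900 had one under 10%.

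The chemokines Ccl4 and Ccl3, attractants for leukocytes, were higher while their unbound level was low. Ccl4 (chromosome 11, 83662584 to 83664683) stood at 10.97, 18.7 and 19.6 RPKM after CNO, against 4.95, 2.04 and 2.40 RPKM after saline. Ccl3, its neighbour on chromosome 11 at 83647844 to 83649355, stood at 51.5, 106 and 118 RPKM after CNO, against 23.8, 17.04 and 16.9 RPKM after saline. In both genes no saline library reached the lowest CNO library, and the log2 changes were 2.103 ± 0.38 (limma adjusted p = 0.0963) and 2.13 ± 0.45 (limma adjusted p = 0.222), which did not pass. The carried share was 0.275% for Ccl4 and 0.578% for Ccl3, since unbound RNA of CNO mice held a mean of 0.128 and 1.502 RPKM of them. The median share over the enriched class was 1.65%. Ccl4 and Ccl3 both passed when CNO library 1 was left out (limma adjusted p = 0.0277 and 0.041) and when only the 6 Chrm3 pull-downs were fitted (limma adjusted p = 0.0396 and 0.0229). Ccl4 also passed with a pseudocount of 5 RPKM, and Ccl3 by limma-voom on recovered reads. Over all alternatives, limma adjusted p ran from 0.0277 to 0.666 for Ccl4 and from 0.0165 to 0.949 for Ccl3.

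Other chemokines split. Ccl2, which attracts monocytes through Ccr2, stood at 4.22, 27.9 and 14.6 RPKM after CNO, against 3.96, 0.962 and 0.263 RPKM after saline, with a carried share of 1.78%. Its lowest CNO library barely exceeded the highest saline library. Ccl7, of the same gene cluster, stood at 2.69, 6.57 and 1.26 RPKM after CNO, against 0.303, 0.0526 and 0.0534 RPKM after saline, and Ccl24 averaged 2.63 ± 1.63 RPKM after CNO and 0.381 ± 0.263 RPKM after saline (SD, n = 3 each). In contrast, Ccl12 had a log2 change of -0.20 and Cxcl10 of -0.37. In all, 6 of 14 chemokines tested were higher and 8 lower, none passed, and the list's median was -0.11 beside -0.03 over all genes. Ccl2, Ccl3, Ccl4, Ccl7 and Ccl24, 5 of the 14, had every CNO library above every saline library, beside 3.94% of all genes.

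Btg2, an antiproliferative co-regulator and 1 of 2 activity genes in the enriched class, stood at 18.6, 64.2 and 85.5 RPKM after CNO, against 15.5, 13.95 and 10.2 RPKM after saline. CNO library 1 was only just above saline library 1, and the change did not pass (log2 1.77 ± 0.40, limma adjusted p = 0.272). Its carried share was 16.1%, the lowest of the activity genes whose groups did not overlap, although unbound Btg2 rose as well (25.6 RPKM after CNO, against 1.30 RPKM after saline). Rgs2, which limits Gq signalling and is the other enriched activity gene, stood at 324, 529.9 and 450.3 RPKM after CNO, against 421, 323 and 267 RPKM after saline, so that its groups overlapped. Unbound Rgs2 rose by log2 2.13 (limma adjusted p = 0.0373), against 0.36 in the pull-down.

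Zfp36, Zfp36l1 and Zfp36l2, related proteins that bind AU-rich elements and speed the decay of cytokine mRNA, were among the 10 enriched genes with the smallest p in the higher direction, and were grouped after their values were seen. Zfp36 (chromosome 7, 28376784 to 28380253) stood at 98.9, 184 and 692 RPKM after CNO, against 90.6, 68.7 and 87.4 RPKM after saline. Its log2 change of 1.502 ± 0.46 depended on single libraries. It was 0.72 without CNO library 3, and 2.12 without CNO library 1, where it passed (limma adjusted p = 0.0287). Zfp36l2 was steadier, at 127, 185 and 218 RPKM after CNO, against 105, 109.5 and 69.0 RPKM after saline, and Zfp36l1 averaged 73.7 ± 19.4 RPKM after CNO and 42.1 ± 9.98 RPKM after saline (SD, n = 3 each). Carried shares were 0.722%, 1.61% and 2.15%. For each of the 3 the lowest CNO library exceeded the highest saline library, but none passed with all libraries (limma adjusted p = 0.479 to 0.682).

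Kdm6b, a histone demethylase that removes H3K27 methylation, stood at 55.1, 62.2 and 110.1 RPKM after CNO, against 33.9, 40.2 and 47.5 RPKM after saline (log2 0.83 ± 0.23), with a carried share of 4.66%. Klc4, a kinesin light chain, was highest in CNO library 1, at 15.7, 9.75 and 10.4 RPKM after CNO, against 7.82, 6.61 and 5.69 RPKM after saline. NF-kB targets and subunits were higher in 16 of 18 cases, beside 45.5% of all genes, with a median of 0.36 and none passing. In 3 of the 18, Zfp36 and Nfkbie among them, every CNO library exceeded every saline library, beside 3.94% of all genes. Nfkbia, the inhibitor that NF-kB itself induces, stood at 20.3, 34.4 and 40.5 RPKM after CNO, against 14.3, 19.3 and 20.8 RPKM after saline. Nfkbie, a related inhibitor, stood at 11.4, 216 and 9.61 RPKM after CNO, against 6.23, 8.17 and 5.46 RPKM after saline, so that 1 library set its log2 change of 2.02 ± 0.85. Without CNO library 2 it was 0.60.

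Plxdc2 differed between the fractions. This plexin-domain receptor gene (chromosome 2, 16356304 to 16755839) stood at 121, 84.5 and 116 RPKM in CNO pull-downs, against 61.2, 69.4 and 44.8 RPKM in saline pull-downs. In unbound RNA it stood at 82.1, 87.4 and 104 RPKM after CNO, against 11.6, 8.29 and 9.70 RPKM after saline. The CNO unbound level thus approached that of the microglial pull-down, whereas in the Chrm4 line unbound Plxdc2 was 8.73 and 8.82 RPKM after CNO, against 10.8 and 9.05 RPKM after saline. Unbound Plxdc2 rose by log2 3.09 (limma adjusted p = 2.47e-07), and its pull-down change of 0.87 ± 0.20 did not pass (limma adjusted p = 0.272). It was the 1 gene of 11721 (0.00853% called) for which the change differed between fractions, by log2 -2.22 (95% interval -2.73 to -1.70, limma adjusted p = 0.000313). Its carried share was 30.1% after CNO and 5.97% after saline.

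Armc3, an armadillo-repeat gene 2.44 Mb away from Plxdc2 on chromosome 2, was another of the enriched genes with the smallest p. It stood at 8.30, 11.7 and 6.20 RPKM in CNO pull-downs, against 2.98, 3.70 and 2.59 RPKM in saline pull-downs (log2 1.22 ± 0.32, limma adjusted p = 0.479). Unbound Armc3 did not follow it, at means of 0.0252 RPKM after CNO and 0.128 RPKM after saline. Ptpla, 2.30 Mb away on the other side of Plxdc2, was among the 10 lowest log2 changes without overlap, at 2.16, 2.13 and 1.52 RPKM after CNO, against 11.3, 3.99 and 7.35 RPKM after saline. Unbound Ptpla overlapped between the groups, at 3.03, 6.44 and 4.19 RPKM after CNO, against 4.195, 4.42 and 4.18 RPKM after saline (log2 0.03). Other genes of the region were not examined as a group. Chrm3 and Plxdc2 separated CNO from saline libraries in both fractions, and whether that came with the injection or with another difference between the animals was not tested.

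**Figure D5:**
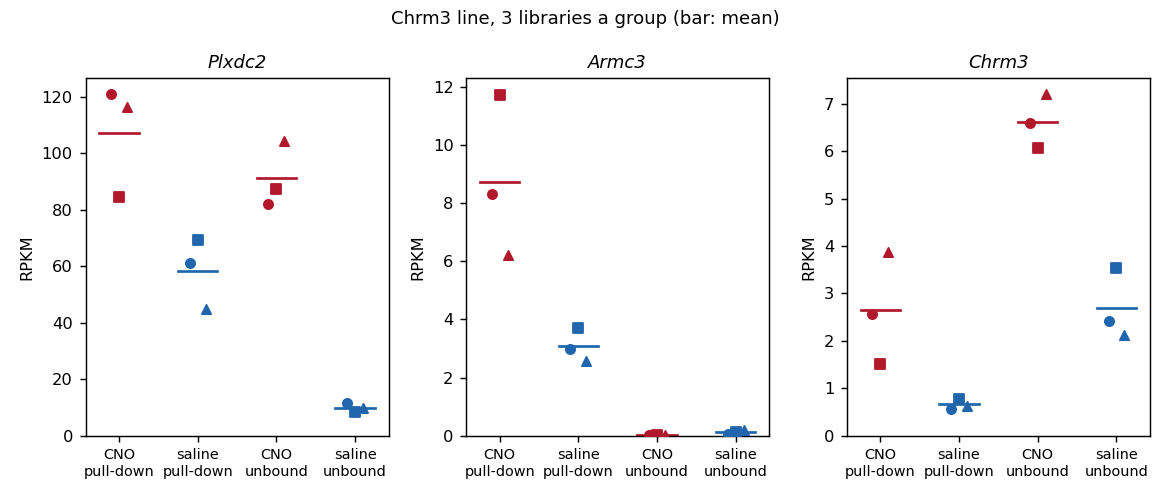
Level in RPKM (linear axis from 0) of Plxdc2, Armc3 and Chrm3 in CNO (red) and saline (blue) libraries of the Chrm3 line, pull-down and unbound, with 3 libraries a group and bars at the means. Unbound Plxdc2 averages 91.3 RPKM after CNO and 9.88 RPKM after saline, and Chrm3 is higher in every CNO library of its fraction.

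Genes that were lower formed a longer list than those that were higher, but none passed. The largest differences among genes whose groups did not overlap were in low genes. For 1500009L16Rik the levels were 1.63, 0.703 and 0.933 RPKM after CNO, against 3.76, 6.21 and 12.8 RPKM after saline (log2 -1.92 ± 0.43, limma adjusted p = 0.272). Resp18, a neuroendocrine secretory protein gene, stood at 5.21, 0.561 and 0.406 RPKM after CNO, against 6.19, 7.60 and 5.78 RPKM after saline. Here CNO library 1 again lay nearest the saline libraries, and without it Resp18 passed. The gene models Gm17379 and Gm10989 are listed at 0 in all CNO libraries.

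Among enriched genes that were lower, Slamf9, a SLAM-family immune receptor, stood at 22.8, 8.28 and 16.5 RPKM after CNO, against 36.2, 23.2 and 38.4 RPKM after saline (log2 -1.07 ± 0.30). CNO library 1 lay just below the lowest saline library. Lst1, a leukocyte transcript, stood at 65.9, 37.3 and 38.6 RPKM after CNO, against 105.6, 67.6 and 85.5 RPKM after saline. The tetraspanin Cd9 stood at 55.6, 61.3 and 41.0 RPKM after CNO, against 81.9, 83.3 and 70.3 RPKM after saline, and Klhl6 averaged 13.7 ± 1.29 RPKM after CNO and 21.4 ± 1.98 RPKM after saline (SD, n = 3 each). Their limma adjusted p values lay between 0.612 and 0.754.

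Programmes by which microglia are usually recognised had list medians between -0.26 and 0.09, against -0.03 over all genes tested. Of all genes 45.5% were higher and 0.0436% passed, so the lack of a call in a short list says little. In simulated data the test called 39% of genes changed 2-fold. Of 30 homeostatic genes 11 were higher and 19 lower, none passed, and the median log2 change was -0.02. The fructose transporter Slc2a5 stood at 23.8, 20.3 and 17.1 RPKM after CNO, against 28.9, 30.5 and 22.0004 RPKM after saline (log2 -0.40), so that its groups overlapped. Complement genes were lower in 8 of 10 cases and antigen presentation genes in 11 of 12, with medians of -0.03 and -0.26, and no member passed. Disease-associated genes were lower in 13 of 17 cases (median -0.21) and Toll-like receptors and adaptors higher in 13 of 19 (median 0.09). The astrocyte markers were lower in 13 of 14 cases and the oligodendrocyte markers in 13 of 13, with medians of -0.22 and -0.37, and the spiny neuron markers in 16 of 18 with a median of -0.47. In unbound RNA the medians of the astrocyte, oligodendrocyte and spiny neuron markers were -0.11, -0.32 and -0.49, against -0.07 over all genes. Not all neuronal lists were lower. In the pull-down, cortical excitatory markers were higher in 5 of 8 cases (median 0.30) and pan-neuronal markers in 7 of 12 (median 0.10). Striatal interneuron markers were higher in 2 of 6 (median -0.11). The unbound medians of these 3 lists were 0.37, 0.15 and -0.12. The part of these other cell types in the small differences above was not tested.

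Heat shock genes were higher in 11 of 12 cases, beside 45.5% of all genes, with a median of 0.35, and none passed. In 5 of the 12 every CNO library was above the saline range, beside 3.94% of all genes. Hspa8, a constitutive chaperone, stood at 172, 214 and 146 RPKM after CNO, against 99.9, 141 and 84.1 RPKM after saline (log2 0.72 ± 0.21), with a carried share of 33.2%. Of 10 MAP kinase feedback genes 7 were higher and none passed (median 0.15). Dusp1, a phosphatase of MAP kinases that glucocorticoids also induce, stood at 16.6, 48.9 and 102 RPKM after CNO, against 9.91, 12.4 and 9.57 RPKM after saline (log2 1.96 ± 0.45), with a carried share of 44.2%. Dusp14, a related phosphatase, stood at 44.5, 106 and 87.6 RPKM after CNO, against 22.8, 13.9 and 32.5 RPKM after saline, with a carried share of 93.4%. Its CNO library 1 was again the lowest of its group.

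Glucocorticoid-responsive genes were higher in 10 of 16 cases (median 0.41), with medians of -0.18, 0.42 and 0.61 in CNO libraries 1 to 3, and none passed. Cdkn1a, a cell cycle inhibitor, stood at 36.1, 28.9 and 48.9 RPKM after CNO, against 17.4, 23.4 and 20.7 RPKM after saline. The metallothionein Mt1 went the other way, at 62.8, 47.8 and 54.1 RPKM after CNO, against 114, 79.4 and 87.1 RPKM after saline. The 15 genes of ATP and adenosine signalling, through which microglia sense firing, split into 7 higher and 8 lower (median -0.05). Of these Adora3, an adenosine receptor of microglia, stood at 14.8, 8.55 and 8.16 RPKM after CNO, against 12.6, 18.7 and 12.8 RPKM after saline, and its groups overlapped.

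Among cytokines, Il1b stood at 4.42, 16.5 and 6.58 RPKM after CNO, against 6.89, 4.02 and 0 RPKM after saline, and Il1a at 19.9, 48.5 and 25.8 RPKM after CNO, against 23.99, 19.99 and 13.2 RPKM after saline. Both overlapped between groups and were highest in CNO library 2. Il10ra, a receptor chain for interleukin 10, stood at 21.6, 24.4 and 31.5 RPKM after CNO, against 14.4, 21.7 and 14.2 RPKM after saline. Of 20 cytokine and receptor genes 16 were higher (median 0.15), and none passed. Tnf did not reach the minimum level, at 1.53, 0.896 and 0.432 RPKM after CNO, against 0.0617, 1.36 and 0.888 RPKM after saline.

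Did the response differ from that of the Chrm4 line, whose receptor silences neurons? The difference of the CNO changes passed for 0 of 11465 genes by limma (0% called), with 452 at an unadjusted p under 0.05 (3.94%), and for 0 by limma-voom on recovered reads, with 601. In simulated data this limma test called 2% of genes changed 2-fold and 45% of those changed 4-fold. The lack of calls therefore does not show that the lines responded alike. Nr4a1 had a difference of 4.12 (95% interval 2.74 to 5.51, limma adjusted p = 0.172), Egr2 of 3.92 (2.24 to 5.6) and Ccl4 of 2.61 (1.33 to 3.90), and these intervals lie above 0. Ccl3 had a difference of 1.47 with an interval that includes 0 (-0.07 to 3.01). None of these genes passed over all genes tested. They were named for their rise in the Chrm3 pull-down, whose values also enter this difference, so intervals above 0 are partly built in. The median difference over all genes tested was -0.06. In the Chrm4 line Nr4a1 stood at 4.57 and 2.21 RPKM after CNO, against 7.22 and 6.33 RPKM after saline.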

How the data were processed

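RNA of tagged ribosomes and unbound RNA of mouse striatum were sequenced. Per the submitters' processing notes, bcl2fastq, TopHat2 2.1.0, HTSeq 0.6.0 and DESeq2 were named, with build mm9. The authors deposited 1 table of RPKM for 20 libraries, with 22560 genes that have values. No read counts were used as deposited, but the RPKM steps gave whole reads within 0.0001 reads for 100% of 18090 genes above 0 in 2 or more libraries, from which depth was taken. Column headings name the group but not the animal, so pull-down and unbound libraries of 1 animal were not matched.

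limma 3.58.1 in R 4.3.3 was fitted to log2(RPKM + 1) with an intensity trend, over 10 pull-down libraries, 10 unbound ones or all 20, for genes with a mean of 1 RPKM or more. Fold changes on this scale understate the change of low genes. The fits were checked on simulated data. Alternatives were another pseudocount, filter, scaling, weighting or set of libraries, and limma-voom on the recovered reads.

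Genes named are those past the threshold, the 10 highest and 10 lowest log2 changes without overlap, the 10 enriched genes with the smallest p in each direction, up to 4 per list by p, and a fixed set. Members and lists were chosen with earlier results of these data known. Positions are from GENCODE M21, and promoters from RefSeq.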

Additional observations from a re-analysis of the deposited data

Results flagged for a closer look

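Plxdc2 is listed here because its change after CNO differed between the fractions of the Chrm3 line. The pull-down change minus the unbound change was -2.22 on the log2 scale (limma adjusted p = 0.000313). Unbound Plxdc2 was higher in 3 of 3 CNO libraries than in any saline library, and so was the pull-down level. The difference passed in 21 of 21 alternatives, between -2.41 and -1.87, with limma adjusted p from 8.2e-06 to 0.00782. In the Chrm4 line, unbound Plxdc2 was 8.73 and 8.82 RPKM after CNO, against 10.8 and 9.05 RPKM after saline, and the cause of the difference was not tested.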

How the results depend on the processing

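The count of genes that changed in the Chrm3 pull-down after CNO, 5 as reported, was 1 (Gm11733, lower) without a filter on low values, 0 without the intensity trend (636 genes at an unadjusted p under 0.05), 3 with sample quality weights, 13 by limma-voom on recovered reads and 8 when only the 6 Chrm3 libraries were fitted. Leaving out 1 library at a time gave 0 to 35, with 35 only without CNO library 1. For the difference between the Chrm3 and Chrm4 lines the range was 0 to 12, with 12 without CNO library 1, and for the difference between fractions it was 1 to 3. The causes were not tested. Both other pseudocounts, a filter at 5 RPKM, both other scalings and a term for depth class, which was chosen after seeing the data, gave 5 to 7. The activity gene median, 1.03 as reported, was 0.63 with a pseudocount of 5 RPKM, 1.31 with 0.1 RPKM, 1.40 by limma-voom, and 0.96 to 1.12 without any 1 library (chosen after seeing the data). Over 71 genes and 1186 gene and alternative values, 1130 kept direction and side of the threshold, 34 lost the call, 22 gained it and 0 reversed. Most of these genes were not called as reported, and many were picked by small p, so the 1130 says little about the calls. All 34 lost calls fell on the 5 called genes. Of 17 alternatives each, Nr4a1 and Fosb were called in 11, Arc and Egr1 in 10 and Egr2 in 9. The enriched class had 0 calls under both other class definitions. No paired analysis was possible because the columns carry no replicate numbers. The shallowest pull-down, CNO library 1 at 14.1 M reads, limits low genes.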
